A study of Saccharomyces cerevisiae with 4 samples.

Results

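The transcripts described here come from the mitochondrial genome of the budding yeast Saccharomyces cerevisiae. They are the features of the authors' deposited table with a mitochondrial locus tag, together with the 15S and 21S ribosomal RNAs and any mitochondrial tRNA. The rule found 21 of 6484 listed features: 6 respiratory subunits, 1 ribosomal protein, 2 ribosomal RNAs, 9 reading frames that lie in introns, 1 further annotated frame and 2 frames with no name in the annotation. No mitochondrial tRNA was among them. The R64 reference annotation holds 46 mitochondrial genes, of which 19 had a row, and the 24 tRNA genes, ATP8, BI3 and RPM1 were not analysed here. The parental strain, BGL-6Kl, was compared with a derivative of it labelled as carrying a deletion of YGP1 (BGL/ygp1Δ), and both were grown without treatment in YPD, a rich glucose medium. Cells were taken after 48 h at 30 °C and 200 rpm, when the activity that the series calls BGL had begun to differ clearly between the strains. Total RNA of 2 biological replicates per strain was sequenced, and the table gives the mean normalised read count of each strain. Not given in the sources used here are the mitochondrial genotype of the strains, the number of clones behind the deletion strain and any selection of RNA.

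The yeast mitochondrial genome encodes the most hydrophobic subunits of cytochrome c oxidase, the bc1 complex and ATP synthase, 1 protein of the mitochondrial ribosome, and the RNAs needed to translate them. A phage-like RNA polymerase transcribes it into long precursors that are cut and spliced. The COX1, COB and 21S rRNA genes can carry introns, many of which encode maturases, reverse transcriptases or DNA endonucleases of their own, and yeast strains differ in which introns they carry. Glucose represses respiration in this yeast, and mitochondrial transcripts usually become more abundant once glucose is used up.

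Whole reads of the 4 libraries could be recovered from the strain means for all 21 features. In each strain the deeper library is called A and the other B, which says nothing of the labels' replicate numbers. Over 6371 features the parental libraries held 15024611 (A) and 12585047 (B) recovered reads, and over 6197 features the deletion libraries held 10154385 (A) and 7419301 (B). YGP1 itself had a mean normalised read count of 62470 in the parent and kept 29.1% of it, 18171, in the deletion strain (adjusted p = 2.88e-08 by the authors' deposited table), so reads of the deleted gene were still counted. Mitochondrial features held 0.0222% of the parent's normalised reads and 0.0286% of those of the deletion strain. Their sum was 1653 and 8547 in parental libraries A and B and 4614 and 7219 in the deletion libraries.

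The parental libraries stood apart from each other in the respiratory subunits and ribosomal RNAs of the mitochondrial genome, which bears on the strain comparison below. Among the 6 respiratory subunits, library B exceeded library A by a median log2 difference of 2.33 (range 1.05 to 3.33), in 21S rRNA by 2.66 and in 15S rRNA by 3.35. The intron frames had a median of 0.43 (range -1.23 to 1.16), and all recovered features had a median of 0.00. Among the 5780 recovered features whose mean reached 10, 16 (0.277%) were at least 4-fold higher in parental library B than in A, and 7 of these were mitochondrial: 15S rRNA, COX1, COX2, 21S rRNA, ATP6, OLI1 and COX3. The deletion libraries lay closer together, with a median log2 difference of 0.60 for the respiratory subunits.

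**Figure D1:**
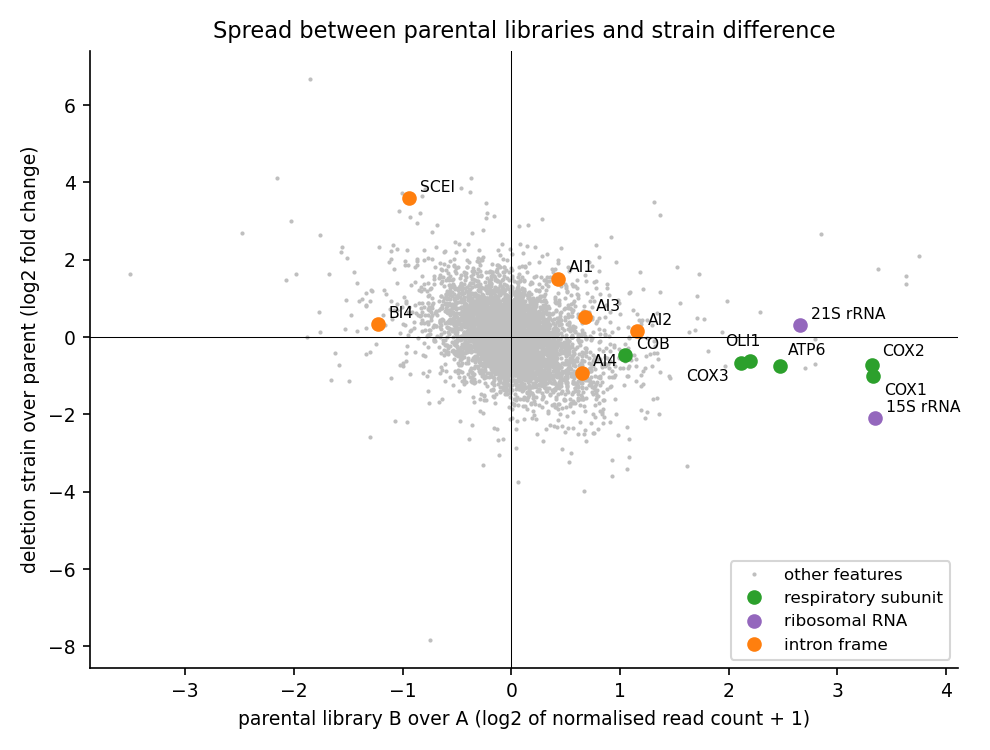
Each point is a feature with a mean of at least 10 and recovered libraries. The x axis gives the log2 ratio of parental library B to A (normalised read count + 1) and the y axis the log2 fold change of the deletion strain over the parent. Respiratory subunits (green) and ribosomal RNAs (purple) all lie to the right, between 1.05 and 3.35 on the x axis. Single other features (grey) reach as far, up to 3.75. The intron frames (orange) lie between -1.23 and 1.16 on that axis. COB, at 1.05, is no further right than the intron frame AI2, at 1.16. SCEI and AI1 are the highest mitochondrial points, at 3.59 and 1.51.

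The nuclear transcripts compared here showed no such shift of their medians between parental libraries. The 21 genes listed as nuclear respiratory subunits that had recovered libraries had a parental log2 difference between -0.12 and 0.20, with a median of 0.01. Their read counts were far higher than those of the mitochondrial subunits, so the groups are not matched in level. Nuclear snoRNAs had a median of -0.05 over 57 features (range -1.98 to 1.55), and nuclear tRNAs one of -0.01 over 13 (range -2.07 to 1.31). Single features of both kinds thus differed by more than COB, at 1.05. Whether the difference between parental libraries in mitochondrial respiratory subunits and ribosomal RNAs arose in the cultures or in library preparation was not tested. In bulk RNA, fewer mitochondrial genomes per cell, fewer cells with mitochondrial DNA and less RNA per genome cannot be told apart.

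Against the parent, 2 of the 21 mitochondrial features were higher in the deletion strain and 0 were lower at an adjusted p below 0.05 in the authors' deposited table. Both that rose are intron frames: SCEI and AI1. Over all 6484 features the same call was made for 9.65% as higher and for 10.3% as lower. An unadjusted p below 0.05 was likewise reached by 2 mitochondrial features. limma with Benjamini-Hochberg adjustment, run on the recovered libraries of 19 of the 21 features, also called 2 higher and 0 lower, against 13.8% and 14.9% of 6116 features fitted. The libraries of the strains did not overlap for 3 of 21 mitochondrial features, compared with 66.2% of 6184 recovered features. The median log2 fold change was -0.54 over the 20 mitochondrial features with a fold change and 0.02 over all listed features. Without parental library A, limma called 5 mitochondrial features (2 higher, 3 lower). It called 3 without parental library B, all higher, and 1 without deletion library B.

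**Figure D2:**
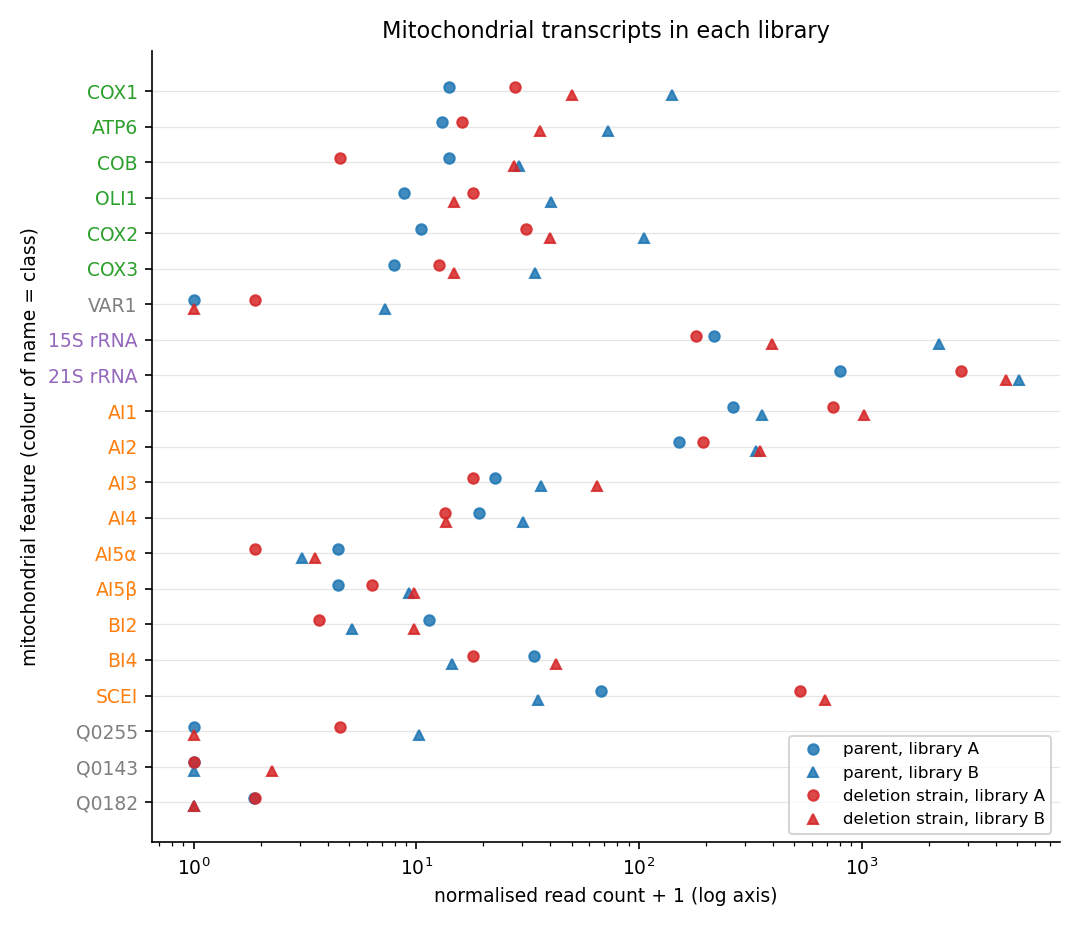
Normalised read count + 1 (log axis) of the 21 mitochondrial features in the parental (blue) and deletion (red) libraries, A as circles and B as triangles. Names are coloured by class: respiratory subunits green, ribosomal RNAs purple, intron frames orange, others grey. Red and blue points are clearly apart for SCEI and AI1 only. The blue circle and triangle are far apart for the ribosomal RNAs and for the respiratory subunits other than COB. They are also far apart for VAR1 and Q0255, on 0 reads in parental library A and 6 and 9 in library B.

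All 6 respiratory subunits had lower means in the deletion strain, with log2 fold changes between -1.02 and -0.46 and a median of -0.69. None passed the test, and no subunit had libraries that separated the strains. The median of the limma differences was -0.26, and it ran from -1.47 without parental library A to 0.88 without parental library B, with 0.20 without deletion library A. COX1, the catalytic subunit of cytochrome c oxidase, had 13.0 and 140 normalised reads in parental libraries A and B and 26.7 and 48.9 in the deletion libraries. Both deletion values lay between the parental ones. Its means of 76.5 and 37.8 gave a log2 fold change of -1.02 (adjusted p = 0.787 by the authors' deposited table). The parental libraries differed 10.8-fold in COX1 (95% exact interval 6.31 to 19.8, counting error only), far more than the 2.02-fold between the strain means. limma gave a log2 difference of -0.26 (SE 0.86, 95% interval -2.15 to 1.64, Benjamini-Hochberg adjusted p = 0.846).

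COX2, which carries the copper centre that takes up electrons from cytochrome c, had 9.52 and 104 normalised reads in the parent and 30.2 and 38.9 in the deletion strain. Its order was that of COX1, with the lowest and the highest value both parental. The log2 fold change of the means was -0.71 (adjusted p = 0.861 by the authors' deposited table), but the mean of log2 values in limma was 0.09 higher in the deletion strain (SE 0.85, 95% interval -1.79 to 1.97, Benjamini-Hochberg adjusted p = 0.949). COX3, the other mitochondrial subunit of the oxidase core, had 6.93 and 33.2 normalised reads in the parent and 11.6 and 13.8 in the deletion strain, again enclosed by the parental values. Its log2 fold change was -0.66 (adjusted p = 0.824 by the authors' deposited table).

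Of the subunits of the other complexes, ATP6 and OLI1 showed the same arrangement and COB did not. ATP6, the proton channel subunit of ATP synthase, had 12.1 and 71.6 normalised reads in the parent and 15.1 and 35.1 in the deletion strain. OLI1, which forms the rotor ring of that enzyme, had 7.79 and 39.4 in the parent and 16.9 and 13.8 in the deletion strain. For both, the deletion values lay inside the parental range, and the log2 fold changes of -0.74 and -0.62 did not pass (adjusted p = 0.804 and 0.861 by the authors' deposited table). COB, cytochrome b of the bc1 complex, had 13.0 and 28.0 normalised reads in the parent and 3.56 and 26.4 in the deletion strain. Here the spread was wider between the deletion libraries, 7.41-fold (95% exact interval 2.50 to 29.7) against 2.16-fold in the parent, and rested on 4 and 21 reads. Its log2 fold change was -0.46 (adjusted p = 0.809 by the authors' deposited table).

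For COX1 and COX2, the result in limma with Benjamini-Hochberg adjustment depended on which parental library was used. Against parental library B alone, the log2 difference of COX1 was -1.92 (adjusted p = 0.00505) and that of COX2 was -1.57 (adjusted p = 0.0381). Against parental library A alone, COX1 stood at 1.41 (adjusted p = 0.217) and COX2 at 1.75 (adjusted p = 0.133), with the sign turned. COX3 also turned sign, from -1.33 against library B to 0.78 against library A, but passed in neither fit (adjusted p = 0.320 and 0.723). In these fits the lone parental library was assumed to vary as the deletion libraries do.

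VAR1, the only ribosomal protein of this genome, was near the limit of detection. Parental libraries A and B held 0 and 6 of its reads and deletion libraries A and B 1 and 0, and its means were 3.11 and 0.444. Its pooled reads, divided by the summed size factors of each strain, gave a ratio of parent to deletion strain of 5.44 with a 95% exact interval of 0.660 to 250. This interval covers counting error only and not the spread between libraries. A difference was not detectable at this depth (adjusted p = 0.791 by the authors' deposited table). By base composition it also stands out among the protein genes, with 10.4% G and C in R64 against 23.7% to 33.3% in the respiratory subunits.

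21S rRNA had the highest normalised read count of the mitochondrial features in every library, while 15S rRNA was below AI1 in 3 libraries, parental library B being the exception. 15S rRNA, the RNA of the small mitochondrial ribosomal subunit, had 217 and 2227 normalised reads in parental libraries A and B and 179 and 395 in the deletion libraries. Parental library B stood well above the other 3 libraries, and parental library A lay between the deletion values. The strain means of 1222 and 287 differed 4.26-fold, lower in the deletion strain (log2 fold change -2.09), without passing the test (adjusted p = 0.595 by the authors' deposited table). The parental libraries differed 10.2-fold (95% exact interval 8.99 to 11.7). limma gave -1.39 (SE 0.80, 95% interval -3.16 to 0.38, Benjamini-Hochberg adjusted p = 0.218). Without parental library A its log2 difference was -3.06 (adjusted p = 1.43e-16), and without parental library B it was 0.29 (adjusted p = 0.679).

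21S rRNA, the RNA of the large subunit, had 803 and 5069 normalised reads in the parent and 2810 and 4446 in the deletion strain. Both deletion values again fell between the parental ones. Its means of 2936 and 3628 ranked 1229 and 1003 among all features, with a log2 fold change of 0.31 (adjusted p = 0.883 by the authors' deposited table). In limma the log2 difference was 0.81 (SE 0.63, 95% interval -0.58 to 2.19, Benjamini-Hochberg adjusted p = 0.361). It was 2.14 against parental library A alone (adjusted p = 1.94e-07) and -0.52 against parental library B alone (adjusted p = 0.342).

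Within a library, the number of 15S reads per 100 reads of 21S rRNA does not depend on the authors' normalisation. It was 27.1 in parental library A (95% exact interval 23.5 to 31.2) and 43.9 in library B (41.7 to 46.2), and 6.36 (5.49 to 7.34) and 8.89 (7.90 to 9.98) in the deletion libraries. Both deletion libraries were therefore below both parental libraries in this ratio, although neither RNA differed between the strains beyond the parental spread. This ratio and those given below were chosen after the values had been seen, and they carry no test.

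Of the 9 reading frames in introns, 2 passed the test, SCEI and AI1, and both rose. Among all 9, 6 had a positive and 3 a negative log2 fold change, with a median of 0.26. The median of the limma differences was 0.25, and with each library left out it ran from -0.31 to 0.63, turning negative when parental library A or deletion library B was left out. The levels of SCEI and AI1 differed less than 2-fold between the parental libraries. AI1, AI2, AI3, AI4 and AI5_ALPHA begin in the first exon of COX1 and continue into an intron, so that they share coding bases with COX1 and with each other in R64. COX1 has 8 exons with 1605 bases there, of which 633 belong to no other listed frame, and exon 1 has 169. How the authors' counter handled shared bases is not given in the sources used here, so reads in shared exons may be split between frames in ways that cannot be told apart. SCEI has no such overlap with exons, as its 708 bases lie inside the intron of the 21S rRNA gene.

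**Figure D3:**
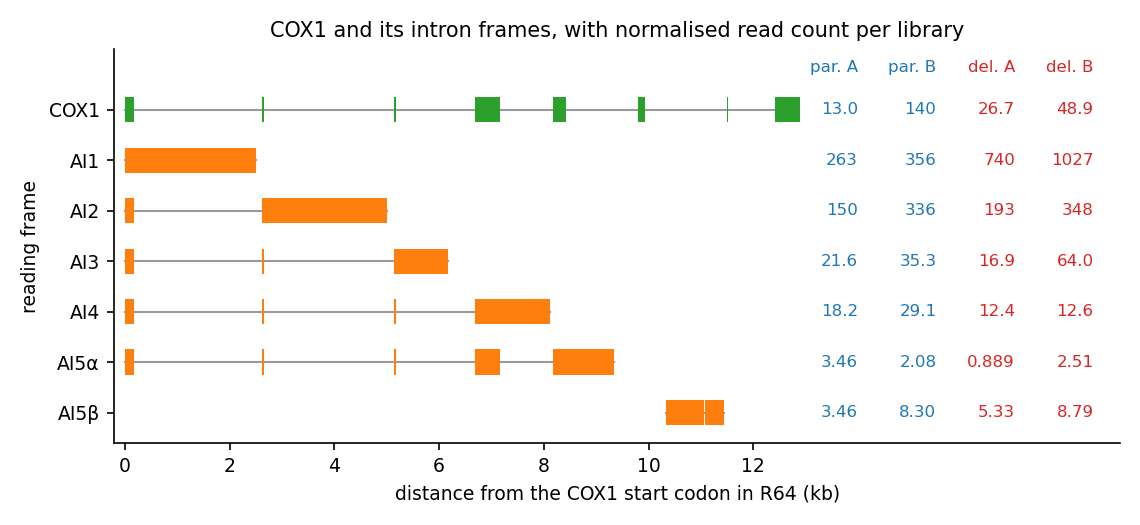
Exons of COX1 (green) and of the 6 frames in its introns (orange), drawn to scale as distance in kb from the COX1 start codon in R64. The normalised read count of each library stands at the right. AI1 and AI2 hold more reads than COX1 in all 4 libraries, and the frames in later introns hold fewer than AI2.

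To show where the frames that rose sit, the splice junctions of the host introns of AI1 and SCEI, and for comparison that of AI2, which did not pass the test, are printed from the RefSeq R64 assembly, plus strand of the mitochondrial chromosome (MT), with 15 exon bases in lower case and 30 intron bases in capitals. They cover MT:13972-14016, MT:16456-16500, MT:60710-60754 and MT:61838-61882, in this order. The first 7 bases of COX1 introns 1 and 2, which host AI1 and AI2, are the same, and both are group II introns, a class with a conserved start.
COX1 exon 1 into intron 1: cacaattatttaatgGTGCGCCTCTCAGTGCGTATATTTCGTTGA
COX1 exon 2 into intron 2: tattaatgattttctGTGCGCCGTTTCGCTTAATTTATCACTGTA
21S rRNA exon 1 into its intron: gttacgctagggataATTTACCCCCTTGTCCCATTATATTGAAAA
21S rRNA intron into exon 2: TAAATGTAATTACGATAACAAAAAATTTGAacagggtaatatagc

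The 21S rRNA intron is a group I intron of 1143 bases. The exon bases on its sides, once joined, make up the recognition site of the endonuclease that SCEI encodes, I-SceI, which cuts 21S rRNA genes that lack the intron and so spreads it. The frame begins 5′ to 3′ with the 60 bases below (MT:61022-61081, plus strand, start codon in capitals) and is rich in A, as are the intron frames in general.
start of the SCEI frame: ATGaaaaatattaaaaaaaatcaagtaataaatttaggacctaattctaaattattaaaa

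SCEI showed the largest log2 fold change of the 20 mitochondrial features that had one. It had 66.7 and 34.2 normalised reads in parental libraries A and B and 528 and 686 in the deletion libraries. All deletion values were well above all parental values. The means of 50.5 and 607 differed 12.0-fold (log2 fold change 3.59, adjusted p = 3.03e-15 by the authors' deposited table), and its rank by mean moved from 5697 to 3563. limma gave 3.63 (SE 0.34, 95% interval 2.86 to 4.39, Benjamini-Hochberg adjusted p = 1.82e-04). Leaving out each library in turn kept it called, at log2 differences from 3.16 to 4.10. Between the parental libraries it ran against the respiratory subunits and ribosomal RNAs, being lower in B than in A (ratio 0.514, 95% exact interval 0.331 to 0.782).

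Relative to the ribosomal RNA of its host gene, SCEI was also higher in the deletion strain. Per 100 reads of 21S rRNA there were 8.31 SCEI reads in parental library A (95% exact interval 6.50 to 10.5) and 0.676 in library B (0.464 to 0.950). In the deletion libraries there were 18.8 (17.2 to 20.5) and 15.4 (14.1 to 16.9). The strains did not overlap in this ratio, but the parental libraries differed by more from each other than library A did from the deletion strain. Per kb of exon that no other listed frame shares, the normalised level of SCEI was 94.2 and 48.4 in the parent and 746 and 970 in the deletion strain, compared with 244 and 1538, and 852 and 1349, for 21S rRNA. Whether SCEI and 21S rRNA were captured equally was not tested.

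AI1, which encodes the reverse transcriptase and maturase of COX1 intron 1, also rose. It had 263 and 356 normalised reads in the parent, and 740 and 1027 in the deletion strain. The strains were again clearly separated, and the parental libraries were only 1.35-fold apart (95% exact interval 1.16 to 1.58). Its means of 310 and 884 differed 2.85-fold (log2 fold change 1.51, adjusted p = 0.00119 by the authors' deposited table), and its rank moved from 4467 to 2928. limma gave 1.51 (SE 0.25, 95% interval 0.94 to 2.07, Benjamini-Hochberg adjusted p = 0.00214). Without deletion library B the log2 difference was 1.27 and the call was lost (adjusted p = 0.0659); without each of the other libraries it was 1.29 to 1.74 and called.

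AI2, the corresponding frame of COX1 intron 2, had 150 and 336 normalised reads in the parent and 193 and 348 in the deletion strain. Its values overlapped between the strains, and its log2 fold change was 0.15 (adjusted p = 0.950 by the authors' deposited table). The interval of the limma difference, -0.67 to 1.08, lay partly within that of AI1. AI1 reads per AI2 read were 1.76 (95% exact interval 1.45 to 2.13) and 1.06 (0.907 to 1.24) in the parental libraries and 3.84 (3.30 to 4.48) and 2.95 (2.57 to 3.40) in the deletion libraries. The ratio of these neighbouring frames was thus higher in both deletion libraries than in either parental library.

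Against COX1 itself, AI1 was higher in both deletion libraries but within counting error of parental library A. Per 100 COX1 reads there were 2027 (95% exact interval 1209 to 3666) and 254 (208 to 312) AI1 reads in parental libraries A and B, and 2777 (1930 to 4142) and 2097 (1521 to 2972) in the deletion libraries. The intervals of parental library A and both deletion libraries overlapped, and parental library B was far below them. AI2 reads per 100 COX1 reads were 1153 and 240 in the parent and 723 and 710 in the deletion strain, with the deletion values between the parental ones. Per kb of unshared exon, COX1 stood at 20.5 and 221 normalised reads in the parent and at 42.1 and 77.3 in the deletion strain. On the same scale AI1 stood at 113 and 152, and 317 and 439. On this scale AI1 was above COX1 in 3 libraries and below it in parental library B. Per kb of all exons, shared ones included, AI1 was above COX1 in all 4 libraries, with 142 against 87.3 normalised reads in parental library B, where they were closest. AI1 and COX1 differ in base composition, with 42.8% and 29.5% A in their unshared bases, and any selection of RNA is not given. Whether both were captured equally was not tested, so these values do not rank the amounts of the RNAs.

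**Figure D4:**
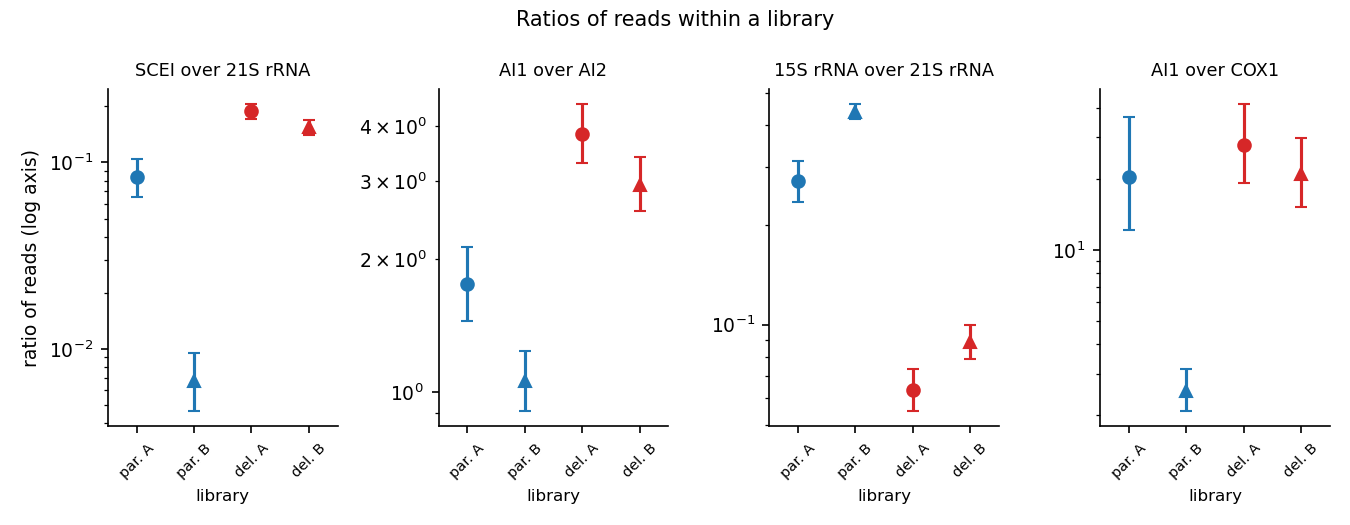
Ratio of reads of 2 features within each library (log axes, 1 panel per pair), parental libraries in blue and deletion libraries in red, with 95% exact intervals that cover counting error only. SCEI over 21S rRNA and AI1 over AI2 are higher in both deletion libraries, 15S over 21S rRNA is lower in both, and AI1 over COX1 is higher in both but within the interval of parental library A.

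The frames in later COX1 introns were counted less. AI3, which encodes an endonuclease, had 25 and 34 reads in parental libraries A and B and 19 and 51 in the deletion libraries, and the normalised parental values lay inside the range of the deletion libraries. AI4, an endonuclease frame with a latent maturase activity, had 18.2 and 29.1 in the parent and 12.4 and 12.6 in the deletion strain. It was the only mitochondrial feature whose deletion libraries both lay below both parental libraries, but its log2 fold change of -0.92 did not pass (adjusted p = 0.573 by the authors' deposited table). The limma interval for AI4 was -2.13 to 0.47 (Benjamini-Hochberg adjusted p = 0.315), on 21 and 28 parental and 14 and 10 deletion reads. AI5_ALPHA and AI5_BETA had 1 to 8 reads in each library, with log2 fold changes of -0.70 and 0.26, and differences of that size were not detectable at this depth.

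The frames in COB introns showed no common direction. BI4, whose maturase acts on its own intron and on a COX1 intron, had 32.9 and 13.5 normalised reads in the parent and 16.9 and 41.4 in the deletion strain. BI2, the maturase of COB intron 2, had 10.4 and 4.15 in the parent and 2.67 and 8.79 in the deletion strain. For both frames the strains overlapped and library A was the higher in the parent but the lower in the deletion strain. Their log2 fold changes were 0.33 and -0.34 (adjusted p = 0.956 and 0.902 by the authors' deposited table).

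The remaining frames were barely counted. Q0255, annotated as a maturase-like frame, had 0 and 9 parental reads and 4 and 0 reads in deletion libraries A and B. Its pooled reads, scaled in the same way as for VAR1, gave a ratio of parent to deletion strain of 2.04 with a 95% exact interval of 0.570 to 9.07, counting error only. Q0143 had 1 read in all and Q0182 had 2. Q0143 has no fold change, and the log2 fold change of Q0182, 0.04, rests on 1 read in each strain. Among the named features, A made up 38.8% to 45.1% of the unshared bases in the intron frames, 42.3% in 15S and 42.8% in 21S rRNA, and 28.6% to 33.5% in the respiratory subunits. VAR1 had the highest share, 50.4%. Whether base composition bears on the difference between parental libraries was not tested.

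Nuclear genes that act on the mitochondrial genome and its RNA were more often higher than lower in the deletion strain. Of 81 listed by role, 19 rose and 4 fell in the authors' deposited table, against 9.65% and 10.3% of all features, and their median log2 fold change was 0.37. Most of those that rose belong to translation: 11 of 25 translation factors and tRNA synthetases rose and 0 fell, with a median of 0.76. limma with Benjamini-Hochberg adjustment called 33 of the 80 with recovered libraries, 25 higher and 8 lower, against 13.8% and 14.9% of the 6116 features fitted. The count was lower with any library left out. ISM1, the mitochondrial isoleucyl-tRNA synthetase, had 394 and 369 normalised reads in the parent and 2260 and 1808 in the deletion strain, and MEF1, an elongation factor, had 1281 and 1177, and 6298 and 5327. The libraries of the strains were far apart for both (5.33-fold and 4.73-fold, adjusted p = 5.91e-13 and 2.62e-12 by the authors' deposited table). IFM1, an initiation factor, and MSK1, the lysyl-tRNA synthetase, rose 4.34-fold and 3.90-fold (adjusted p = 5.40e-10 and 1.11e-09 by the authors' deposited table).

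Of 12 genes for intron splicing, 2 rose and 0 fell, against 9.65% and 10.3% of all features. NAM2, the mitochondrial leucyl-tRNA synthetase that also takes part in splicing, had 692 and 565 normalised reads in the parent and 2445 and 2105 in the deletion strain. CBP2, needed to splice a COB intron, had 361 and 260, and 832 and 722. All deletion values were above all parental ones, and the log2 fold changes were 1.86 and 1.32 (adjusted p = 3.15e-08 and 5.24e-04 by the authors' deposited table). The other 10 did not pass, among them MSS116, an RNA helicase that acts on the group I and group II introns.

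Among 10 genes for transcription and the nucleoid, 2 rose and 2 fell, against 9.65% and 10.3% of all features. RPO41, the mitochondrial RNA polymerase, had 1860 and 1850 normalised reads in the parent and 4129 and 2889 in the deletion strain, and the strains were separate. It rose by 0.92 on the log2 scale and MHR1, a recombination factor of mitochondrial DNA, by 1.19 (adjusted p = 0.0283 and 4.24e-04 by the authors' deposited table). RPM2, the protein subunit of mitochondrial RNase P, and MIP1, the mitochondrial DNA polymerase, had log2 fold changes of -1.06 and -0.81 (adjusted p = 0.00974 and 0.0297 by the authors' deposited table).

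Of 18 genes for RNA stability and processing, 2 rose and 2 fell, close to the 9.65% and 10.3% of all features. MTO1, which modifies mitochondrial tRNAs, had 272 and 139 normalised reads in the parent and 1084 and 870 in the deletion strain. SLS1, which couples transcription to translation, had 294 and 286, and 1208 and 1117. Both were clearly higher in the deletion strain, with means of 205 and 977 for MTO1 and of 290 and 1162 for SLS1 (adjusted p = 1.11e-09 and 1.40e-08 by the authors' deposited table). NCA3, which affects the ATP6 and ATP8 message, and AEP1, needed for OLI1 expression, had log2 fold changes of -2.05 and -0.91 (adjusted p = 2.56e-04 and 0.0130 by the authors' deposited table). Of 16 translational activators, MSS51, the activator of COX1, rose by 1.40 on the log2 scale and DPC29 by 0.80, while AEP1, which is in this list too, fell (adjusted p = 1.72e-05 and 0.0237 for the first pair by the authors' deposited table). Of 7 genes for membrane insertion, MSS2 rose 2.01-fold (adjusted p = 0.0366 by the authors' deposited table).

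The nuclear subunits of the complexes that the mitochondrial subunits join went mostly the other way. Of 36 listed genes, 1 rose and 9 fell, against 9.65% and 10.3% of all features, with a median log2 fold change of -0.52. In the bc1 complex 3 of 9 fell, among them QCR2 with 24857 and 26682 normalised reads in the parent and 11528 and 9123 in the deletion strain (log2 fold change -1.32, adjusted p = 9.93e-05 by the authors' deposited table). The ATP synthase list also holds INH1, STF1 and STF2, which are inhibitor or stabilising factors and not subunits. In this list 5 of 17 fell and 0 rose, ATP20 and ATP2 by 0.95 and 0.97 on the log2 scale (adjusted p = 0.00709 and 0.00773 by the authors' deposited table). In cytochrome c oxidase COX4 fell by 0.82 and COX5B, an isoform used under low oxygen, rose by 1.03 (adjusted p = 0.0159 and 0.00386 by the authors' deposited table). The nuclear bc1 and ATP synthase lists had medians of -0.62 and -0.70, whereas the nuclear cytochrome c oxidase list had one of 0.11. The parental libraries lay close together, as given above, for the 21 of 36 genes with recovered libraries.

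**Figure D5:**
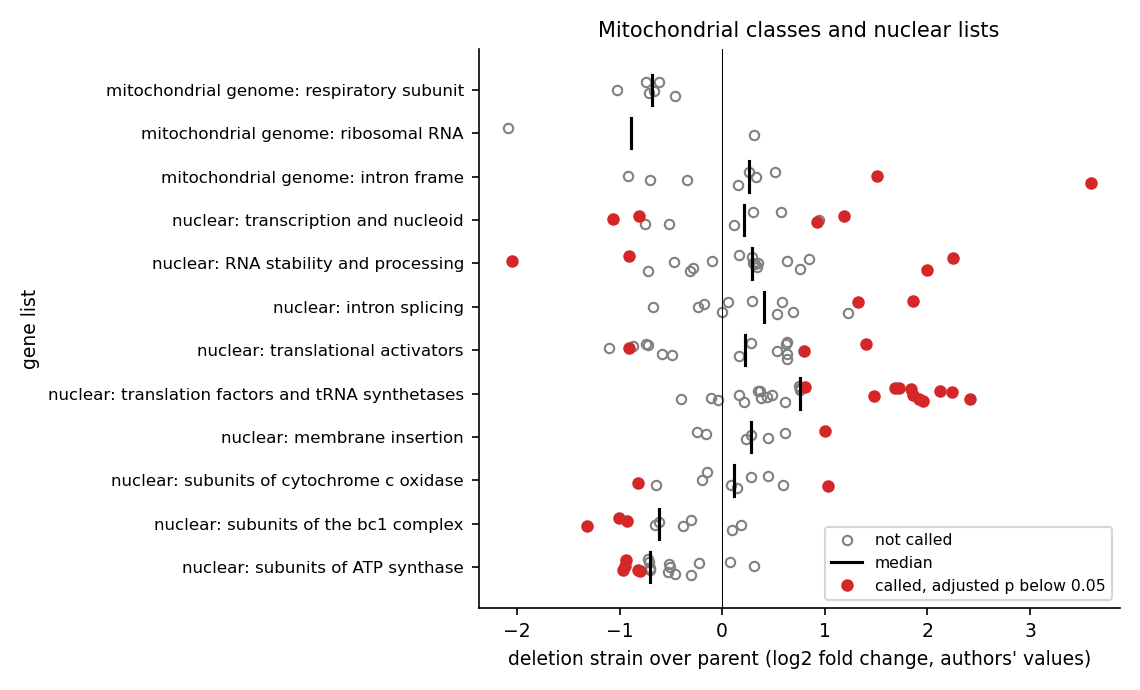
Log2 fold change of the deletion strain over the parent for each member of 3 classes of mitochondrial features and of 9 nuclear lists, from the authors' values. Filled red circles passed the authors' test, open circles did not, and bars are medians. The respiratory subunits of the mitochondrial genome have a median of -0.69, with 0 of 6 called. This median depends on the parental library used: in limma it was -1.47 without library A and 0.88 without library B. The nuclear bc1 and ATP synthase lists have medians of -0.62 and -0.70, and translation factors and tRNA synthetases lie to the right (median 0.76).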

How the data were processed

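RNA-seq of 4 yeast libraries was used, 2 per strain. TRIzol was used to extract total RNA, and libraries followed standard Illumina procedures, per the labels' protocols. Not given in the sources used here are the aligner, counter, genome build, strandedness, RNA selection and test, so reads of overlapping or antisense features cannot be told apart. Per the file headers, the authors deposited 1 read count for each strain. Its values show that the authors made this signal as a mean of 2 libraries, each divided by a size factor. The authors also deposited a log2 fold change and, per feature, a p-value with its adjusted form. Their adjusted p is the main result, called below 0.05. The series calls the replicates biological without naming separate cultures, and the p-values cover the spread between these libraries only.

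Every strain mean must be a sum of 2 whole read numbers, each times the step of its library. Pairs of whole reads that matched the deposited value within 0.55 of its last digit were listed, and a unique pair was kept: 98.3% of the features for the parent, 95.6% for the deletion strain, with size factors of 1.155, 0.9636, 1.125 and 0.7968. The 2-sided test of limma 3.58.1 in R 4.3.3 was fitted with an intensity trend to log2(normalised read count + 1) of 6116 recovered features with a mean of at least 1, with Benjamini-Hochberg adjustment. Its differences are between means of log2 values and can lie on either side of the authors' log2 fold change, which compares strain means. COB, for example, had -0.85 in limma and -0.46 by the authors. Adding 1 can also understate the change of low features. Scripts were tested on simulated data. The authors' build being unknown, R64 (RefSeq) served for names, exon overlap, lengths and printed sequences, and 5871 features matched its locus tags. Intervals of read ratios are exact (Clopper-Pearson) at 95% and cover counting error only.

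Members and gene lists were chosen with earlier results of these data known. Named are the members that encode proteins or RNAs with known roles, those called, and at most 4 called genes per direction from each nuclear list. The design had foreseen strain means, with a test per library as an alternative only. Other thresholds, adjustments, filters, pseudocounts and centring were tried, and each library was left out in turn.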

Additional observations from a re-analysis of the deposited data

How the results depend on the processing

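The count of 2 mitochondrial features called held under the stricter threshold of 0.01, a minimum fold of 2, other adjustments and filters, and every limma setting with all 4 libraries. With each library left out it ranged from 1 to 5. The count of 23 nuclear genes of mitochondrial gene expression ranged from 15 to 24 with each library left out and from 16 to 34 otherwise. COX2 turned from -0.71 to 0.09 in limma with its main settings, with a mean of at least 10, without a filter and without the trend.

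With each library left out in limma, the sign of 14 members turned, the 15S rRNA running from -3.06 to 0.29, 21S rRNA from -0.52 to 2.14, COX1 from -1.92 to 1.41, COX2 from -1.57 to 1.75, COX3 from -1.33 to 0.78, COB from -2.14 to 0.44, ATP6 from -1.59 to 0.88 and OLI1 from -1.31 to 0.89. AI2 ran from -0.38 to 0.79, AI3 from -0.68 to 1.18, AI5_BETA from -0.24 to 0.82, BI2 from -1.06 to 0.35, BI4 from -0.31 to 0.94 and Q0255 from -2.28 to 1.09. The cause was not tested. SCEI and AI1 kept their direction throughout (3.16 to 4.10 and 1.27 to 1.74). On the strain means, class medians were -0.71 to -0.66 for respiratory subunits and 0.23 to 0.42 for intron frames under other filters, centring and pseudocounts. Medians of limma differences, added after seeing the data, ran with each library left out from -1.47 to 0.88 for respiratory subunits, from -0.31 to 0.63 for intron frames and from -1.79 to 1.21 for the ribosomal RNAs.

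No paired analysis was possible because the columns carry no replicate numbers, and the recovered library letters do not match those of the labels. With 2 libraries per strain and as few as 4 reads for COB in a library, the data cannot show moderate changes of the respiratory subunits. For features with at most 10 reads in a strain, 6 among the mitochondrial ones, no difference can be read.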

Other observations

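The other 9 features that were at least 4-fold higher in parental library B than in A had means between 10.2 and 21.7 over the 4 libraries. YBR113W had 6.06 and 47.7 normalised reads in the parental libraries, YLR123C had 2.60 and 23.9, and YNR025C had 3.46 and 28.0. The opposite difference was found for 5 features, none mitochondrial: YDR098C-B, for example, had 28.6 and 6.23, and the nuclear tRNA feature tT(AGU)C had 42.4 and 9.34. In the deletion strain 33 features were at least 4-fold higher in library B than in A and 12 in A than in B, and COB was the only mitochondrial feature among them.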
